A study of Mus musculus with 6 samples.

Results

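Genes of cholesterol and fatty acid synthesis were examined in alveolar macrophages of mice, phagocytes that live in the air spaces of the lung. The set was a list of 31 genes matched by symbol, and all 31 were found among the 11789 genes of the deposited table. It holds 18 enzymes of the sterol pathway, 5 genes that sense sterols and regulate the pathway, the sterol carrier Stard4 and 7 genes of the fatty acid branch. The study compared 3 libraries from A20 conditional knockout mice (A20-1, A20-3 and A20-4) with 3 libraries from wild-type mice (BLM1, BLM2 and BLM3). Both groups were C57BL/6 mice exposed to an agent that the labels abbreviate as BLM, and the tissue was lung. A20 is the ubiquitin-editing inhibitor of NF-kB encoded by Tnfaip3. The sources used here give neither the Cre driver nor the exons deleted, and no dose, time after exposure, age, sex, pooling of animals or cell sort. Nothing in the labels says that replicates were separate animals, so p-values measure only the spread between these libraries, which may be technical.

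Cells build cholesterol from acetyl-CoA by way of mevalonate, squalene and lanosterol. Transcription of these enzymes is driven mainly by SREBP-2 (Srebf2), which the escort protein SCAP carries to the Golgi for cleavage when sterols in the endoplasmic reticulum are low, and which INSIG proteins hold back when sterols are plentiful. SREBP-1 (Srebf1) acts more on the fatty acid branch, in which acetyl-CoA is made into palmitate and then elongated and desaturated. Alveolar macrophages take up surfactant, a film rich in phospholipid and cholesterol, and so handle much lipid that they did not make.

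Library BLM3 stood apart from the other 5 libraries in measures that do not rest on the synthesis genes. Across genes its Pearson correlation with BLM1 and BLM2 was 0.925 and 0.913, against 0.982 between BLM1 and BLM2 and 0.977 to 0.980 among the knockout libraries (a description, since genes are not replicates). The 9 neutrophil markers in the table, of 12 listed, summed to 114.9 to 157.7 FPKM (fragments per kilobase of transcript, scaled to the fragments mapped in that library) in the knockout libraries, and to 150.1, 163.1 and 2830 FPKM in BLM1, BLM2 and BLM3. The defining marker Ly6g was at 0 in A20-3, A20-4, BLM1 and BLM2, at 0.0752 FPKM in A20-1 and at 2.25 FPKM in BLM3, and S100a9, S100a8 and Csf3r had the highest means over the 6 libraries in that list. Those means rest on BLM3, and other members went another way: Ltf had 35.5, 27.5 and 20.9 FPKM in A20-1, A20-3 and A20-4, beside 9.01, 13.1 and 28.9 FPKM in BLM1, BLM2 and BLM3, and Mmp8 in BLM3 (32.2 FPKM) lay within the knockout range of 26.2 to 41.7 FPKM. The 18 alveolar macrophage markers, among them Chil3, Cd9 and Ear2, summed to 7263 to 9656 FPKM in the knockout libraries and to 8025, 9326 and 5332 FPKM in BLM1, BLM2 and BLM3. BLM3 was the lowest library for 14 of these 18, and none was at 0 in any library. The recruited macrophage markers (20 gene IDs for 19 symbols) summed to 2679 to 3460 FPKM in the knockout libraries and to 6979 to 10205 FPKM in the wild-type libraries. Spp1 made up much of these sums, with 2275, 1925 and 1558 FPKM in A20-1, A20-3 and A20-4, and 7125, 7455 and 3870 FPKM in BLM1, BLM2 and BLM3. By median deviation from each gene's mean (log2), BLM3 was the highest library for this list, at 0.81, beside 0.52 in BLM1 and 0.41 in BLM2. Among the 20 IDs, 16 had a negative and 4 a positive difference, and 5 fell (limma, adjusted p under 0.05), against 0.851% of genes tested. Of the alveolar markers 1 fell (Marco, log2 difference -1.87, limma adjusted p = 0.0466) and 0 rose. Most of them went the other way from Marco, with 14 positive and 4 negative differences and a median log2 difference of 0.62. All knockout values were above all wild-type ones for 7 of the 18 and below for 2, against 15.9% and 13.1% of genes tested. Sums of the other lists were 150.4 to 169.6 FPKM in knockout and 103.3 to 333.5 FPKM in wild-type libraries for 13 lymphocyte genes, and 463.9 to 514.3 FPKM in knockout and 106.4 to 297.1 FPKM in wild-type libraries for 12 epithelial genes. The epithelial genes did not go one way, since all knockout values were above all wild-type ones for 4 (Scgb1a1, Krt19, Cdh1 and Epcam) and below for 3 (Krt8, Krt18 and Nkx2-1), against 15.9% and 13.1% of genes tested. For 14 proliferation genes tested the sums were 117.5 to 139.5 FPKM in knockout and 102.9 to 148.2 FPKM in wild-type libraries. Of the lymphocyte, epithelial and proliferation lists, 0 genes were called with 6 libraries. Without BLM3, marker calls were more numerous: 9 recruited macrophage IDs fell, 4 alveolar markers rose and 3 fell, 2 lymphocyte genes rose (Cd8a and Nkg7), 1 epithelial gene rose (Krt19) and 2 fell (Krt8 and Krt18), and 1 neutrophil marker rose (Ltf) and 1 fell (S100a8), against 1.35% of genes tested that rose and 2.5% that fell. The part that other cells play in the results below was not tested, and in bulk RNA fewer cells of a type and less RNA per cell cannot be told apart. Tnfaip3, the gene of A20, had 8.44, 12.9 and 6.80 FPKM in A20-1, A20-3 and A20-4, beside 4.47, 2.18 and 21.6 FPKM in BLM1, BLM2 and BLM3 (log2 difference 0.46 ± 0.69, SE, limma adjusted p = 0.734). Without BLM3 every knockout value of Tnfaip3 was above both wild-type ones, against the knockout label (1.27 ± 0.31, adjusted p = 0.0797), an order found for 23.5% of genes tested. Whole-gene FPKM cannot check the deletion of unstated exons, so directions are between libraries as labelled.

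The sterol enzymes varied together across libraries, and the order of the libraries was nearly the same for each of them. They were highest in the wild-type libraries BLM1 and BLM2, intermediate in the 3 knockout libraries and lowest in the wild-type library BLM3. For 15 of 18 sterol enzymes all 3 knockout values lay between BLM3 and the lower of BLM1 and BLM2, an order found for 2.91% of the 10696 genes tested. This order was noticed in the data, and the percentage is a description. BLM3 was the lowest of the 6 libraries for 17 of the 18 enzymes, the exception being Sc5d, and for 30 of all 31 genes, against 27.6% of genes tested. Summed over the 18 enzymes, FPKM came to 479.2 in A20-1, 451.1 in A20-3 and 375.3 in A20-4. It came to 598.5 in BLM1, 600.2 in BLM2 and 221.6 in BLM3. The knockout sums lay inside the spread of the wild-type group, whose own libraries were farthest apart. Within the knockout group, A20-4 was the lowest library for 15 of 18 sterol enzymes and A20-1 the highest for 14.

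**Figure D1:**
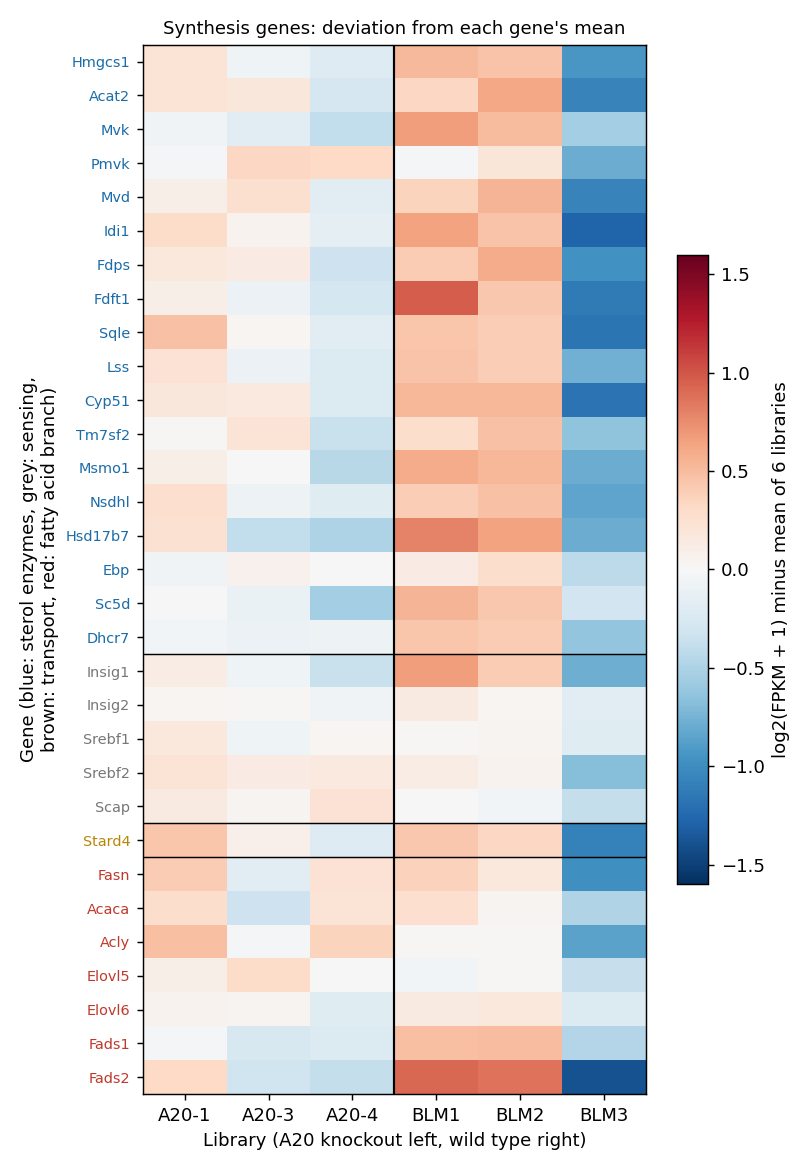
Deviation of each gene's log2(FPKM + 1) from its mean over the 6 libraries, with libraries as columns (A20 knockout left of the line, wild type right) and the 31 genes as rows by role. Most of the 18 sterol enzymes are red in BLM1 and BLM2, pale in the knockout libraries and blue in BLM3, which was lowest for 17 of them.

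Compared as labelled, 0 of the 31 genes rose and 0 fell in the knockouts (limma on log2(FPKM + 1), Benjamini-Hochberg adjusted p under 0.05 over all genes tested), against 0.252% of all genes tested that rose and 0.851% that fell. At an unadjusted p under 0.05 the counts were also 0 and 0, against 11% of genes tested that rose and 9.3% that fell. The smallest adjusted p among the 31 was 0.290, for Scap. Of the 18 sterol enzymes, 11 had a negative and 7 a positive difference, beside 47.1% of genes tested with a negative one, and their median log2 difference was -0.03, beside 0.02 over all genes tested. After rescaling to TPM these medians were 0.06 and 0.10. With array weights, which give each library a weight by how well it fits its group, the median of the sterol enzymes was -0.46 and 3 of them fell (Mvk, Sc5d and Hsd17b7), as did Fads1, but those weights also raised the calls over all genes tested to 9.27% that fell and 8.81% that rose. The intervals were wide without such weights. For Idi1, the isomerase of isopentenyl pyrophosphate, the 95% interval of the log2 difference ran from -1.06 to 1.31.

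Without BLM3 most sterol enzymes had lower values in the knockout libraries. Of the 18, 17 had a negative difference, against 45.9% of all genes tested, and the median was -0.49, beside 0.03 over all genes. All 3 knockout values lay below both BLM1 and BLM2 for 16 of the 18, against 19.6% of all genes. The 16 include the 15 enzymes with the order described above, so this count is no separate result. That order was noticed in the data, and leaving out BLM3, the lowest library for 17 of the 18, lowers their differences by construction. Adjusted over all genes, 2 of the 18 fell and 0 rose (limma, p under 0.05), against 2.5% of genes tested that fell and 1.35% that rose, and 13 of the 18 were lower at an unadjusted p under 0.05, against 11.2% of genes. The mean knockout level of a sterol enzyme was 50.5% to 109.3% of the mean of BLM1 and BLM2, with a median over enzymes of 70.9%. In BLM3 the level was 25.3% to 63.7%, with a median of 36.6%. Library BLM3 thus decided the counts and the size of the median difference. Leaving out BLM1, BLM2 or A20-4 instead turned the median of the sterol enzymes to 0.18, 0.16 and 0.07, with 0 of the 18 called each time.

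**Figure D2:**
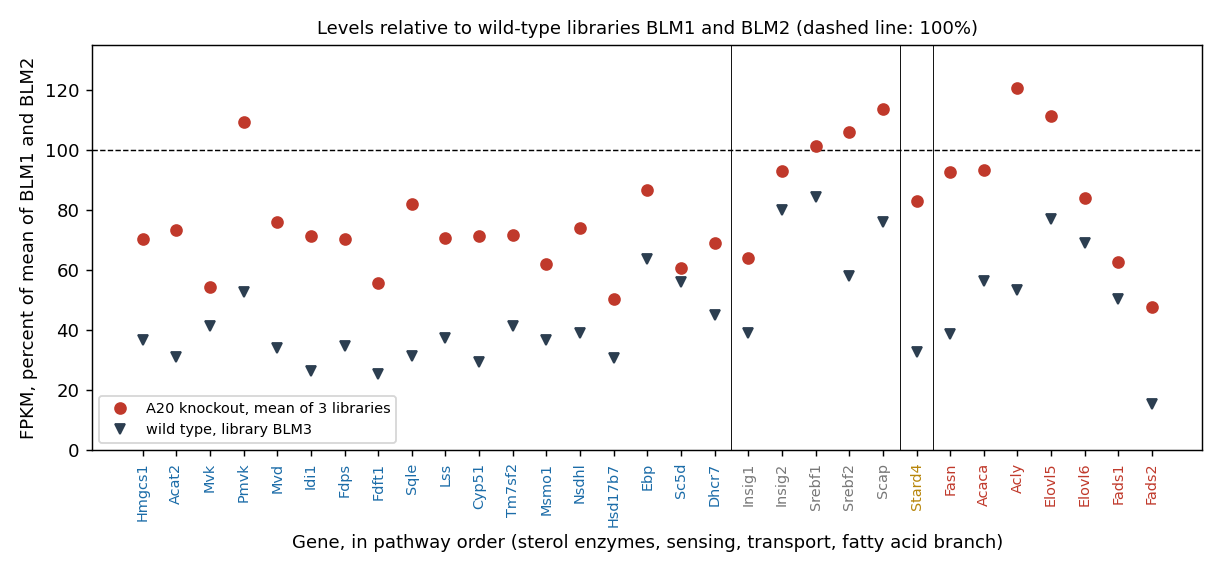
FPKM of each gene as a percentage of the mean of wild-type libraries BLM1 and BLM2 (dashed line), in pathway order, for the mean of the 3 A20 knockout libraries (circles) and for the wild-type library BLM3 (triangles). Circles of the sterol enzymes have a median of 70.9% and triangles a median of 36.6%.

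Among the enzymes that lead from acetyl-CoA to squalene, Mvk, which phosphorylates mevalonate, had the smallest p without BLM3. Mvk (ENSMUSG00000041939.14, GRCm38 chromosome 5, 114444269 to 114460591, plus strand) had 7.83, 7.16 and 6.00 FPKM in A20-1, A20-3 and A20-4, and 13.6, 12.1 and 5.30 FPKM in BLM1, BLM2 and BLM3. BLM1 and BLM2 were high, and the knockout libraries lay just above BLM3, so the groups overlapped. The log2 difference was -0.42 ± 0.32 (SE, n = 3 each, limma adjusted p = 0.489), and without BLM3 Mvk fell by 0.80 ± 0.14 (adjusted p = 0.0351). Hmgcs1, which makes the mevalonate precursor HMG-CoA (ENSMUSG00000093930.2, chromosome 13, 119690379 to 119708260, plus strand), had 68.3, 55.6 and 50.8 FPKM in the knockout libraries and 84.7, 81.1 and 30.3 FPKM in the wild-type libraries, here and below in the order of libraries given for Mvk. The knockout libraries were again between, with means of 58.3 ± 9.03 FPKM in the knockout and 65.4 ± 30.4 FPKM in the wild-type libraries (SD, n = 3 each), and their log2 values differed by -0.04 ± 0.39 (SE, limma adjusted p = 0.963) or -0.51 ± 0.14 without BLM3 (adjusted p = 0.0994).

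Fdft1, squalene synthase and the first enzyme committed to sterols, had 18.6, 16.1 and 14.1 FPKM in the knockout libraries, and 34.7, 23.7 and 7.38 FPKM in the wild-type libraries. The 3 wild-type libraries were spread more widely than the knockout ones on both sides, and without BLM3 the log2 difference was -0.79 ± 0.19 (SE, limma adjusted p = 0.0743). Of Fdft1's exonic bases, 18.3% overlap exons of the cathepsin gene Ctsb on the opposite strand, and the use of strand in counting is not given, so this value is uncertain. Idi1 (38.8, 32.7 and 28.0 FPKM in A20-1, A20-3 and A20-4) was lowest in BLM3 at 12.3 FPKM, with 49.7 and 43.4 FPKM in BLM1 and BLM2. Fdps, farnesyl pyrophosphate synthase, Mvd, which makes isopentenyl pyrophosphate, and Acat2, the cytosolic thiolase at the start of the pathway, had the same order, at 70.3%, 76.0% and 73.2% of the mean of BLM1 and BLM2 in the knockout libraries. In BLM3 they were at 34.7%, 33.9% and 30.97%. Exons of Fdps share 26.7% of their bases with another annotated gene on the same strand, which leaves its level uncertain. Smaller shares of Hmgcs1 (12.1%) and Idi1 (9.2%) lie opposite another annotated transcript. The exception on this stretch was Pmvk, phosphomevalonate kinase, with 27.1, 35.3 and 34.8 FPKM in the knockout libraries, and 27.4, 31.9 and 15.6 FPKM in the wild-type libraries. Pmvk shared the low value in BLM3, but its knockout mean was 109.3% of that of BLM1 and BLM2 (log2 difference 0.12 ± 0.15 without BLM3, SE, limma adjusted p = 0.670).

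Past squalene, Dhcr7, the reductase of the last step to cholesterol (ENSMUSG00000058454.15, chromosome 7, 143823145 to 143848410, plus strand), was the most even within the knockout group. It had 13.99, 13.47 and 13.60 FPKM in the knockout libraries, and 20.1, 19.6 and 8.94 FPKM in the wild-type libraries. BLM1 and BLM2 stood well above the knockout libraries and BLM3 well below them, so the log2 difference was -0.15 ± 0.29 (SE, n = 3 each, limma adjusted p = 0.799), and without BLM3 Dhcr7 fell by 0.50 ± 0.09 (adjusted p = 0.0435). Hsd17b7, a ketoreductase of sterol demethylation, had the lowest knockout share of BLM1 and BLM2 among the sterol enzymes, at 50.5%. Its values were 9.94, 6.04 and 5.55 FPKM in the knockout libraries, and 15.0, 13.4 and 4.35 FPKM in the wild-type libraries, with a log2 difference of -0.43 ± 0.44, or -0.93 ± 0.23 without BLM3 (SE, limma adjusted p = 0.608 and 0.0808). Msmo1, the methyl sterol oxidase, had 16.5, 15.4 and 11.1 FPKM in the knockout libraries, and 23.7, 22.5 and 8.45 FPKM in the wild-type libraries.

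Sc5d, the sterol desaturase before the Dhcr7 step, was the only sterol enzyme whose lowest library was a knockout one. It had 17.0, 15.8 and 11.4 FPKM in the knockout libraries, and 25.3, 23.3 and 13.6 FPKM in the wild-type libraries. Sqle, squalene epoxidase and a rate-controlling step, differed from the usual order in A20-1, whose 33.1 FPKM was above the 32.4 and 31.2 FPKM of BLM1 and BLM2. A20-3 and A20-4 had 24.2 and 20.9 FPKM and BLM3 had 9.95 FPKM. The other enzymes, Lss (lanosterol synthase), Cyp51 (lanosterol demethylase), Tm7sf2 (a sterol reductase), Nsdhl (a sterol dehydrogenase) and Ebp (a sterol isomerase), all had the knockout values between BLM3 and the other wild-type libraries. Cyp51 was the most abundant of these, with 51.5, 50.2 and 38.7 FPKM in the knockout libraries, and 65.8, 65.7 and 19.3 FPKM in the wild-type libraries. Ebp varied least, at 86.4% of the mean of BLM1 and BLM2 in the knockout libraries and 63.7% in BLM3. Exons of Tm7sf2 share 12.1% of their bases with another annotated gene on the same strand, so its level is uncertain too.

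**Figure D3:**
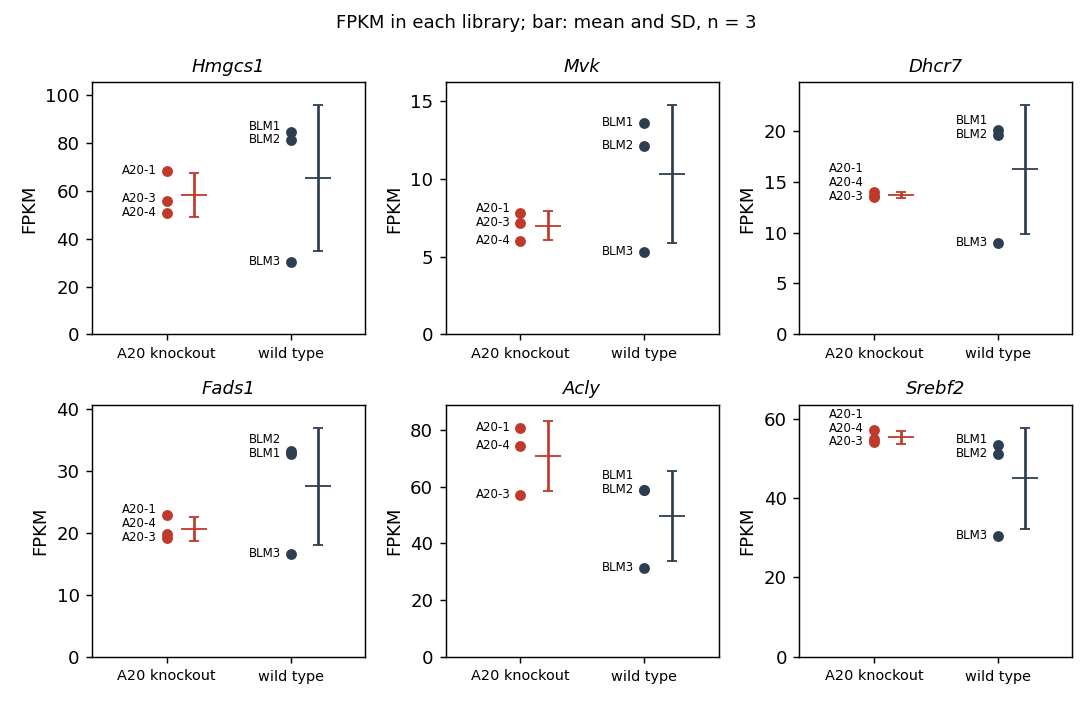
FPKM of 6 genes in each library (points, named), with A20 knockout left of wild type in each panel and the mean and SD (bar, n = 3) beside the points. Hmgcs1, Mvk, Dhcr7 and Fads1 have the knockout values between BLM3 and the other wild-type libraries, whereas A20-1 and A20-4 for Acly, and all 3 knockout libraries for Srebf2, lie above BLM1 and BLM2.

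Of the 5 genes that sense sterols, 1 (Insig1) had the library order of the enzymes. Insig1 is at once an anchor of SCAP and a target of SREBP, and had 49.8, 43.3 and 35.5 FPKM in the knockout libraries, and 73.3, 61.1 and 26.2 FPKM in the wild-type libraries. The knockout values lay between BLM3 and the other wild-type ones, and without BLM3 the log2 difference was -0.64 ± 0.16 (SE, limma adjusted p = 0.0864). Srebf2 (ENSMUSG00000022463.7, chromosome 15, 82147266 to 82205376, plus strand) had 57.2, 54.0 and 54.8 FPKM in the knockout libraries, and 53.4, 51.2 and 30.4 FPKM in the wild-type libraries. All 3 knockout values of Srebf2 were above all 3 wild-type values, as for 15.9% of genes tested, but by little except against BLM3, and the log2 difference of 0.33 ± 0.22 (SE, n = 3 each) was not called (limma adjusted p = 0.418). Scap was likewise higher in each knockout library, with 11.4, 10.6 and 12.2 FPKM in the knockout libraries, and 10.2, 9.87 and 7.63 FPKM in the wild-type libraries (log2 difference 0.28 ± 0.13, SE, limma adjusted p = 0.290). An unstranded count could add reads to Scap, since 13.2% of its exonic bases lie opposite another annotated transcript. Srebf1 averaged 13.2 ± 1.18 FPKM in the knockout and 12.3 ± 1.18 FPKM in the wild-type libraries (SD, n = 3 each), and Insig2 averaged 5.04 ± 0.197 and 5.07 ± 0.680 FPKM in those groups. The 95% interval of the log2 difference was -0.19 to 0.37 for Srebf1 and -0.28 to 0.28 for Insig2. Without BLM3 the knockout values of Srebf2 and Scap were still above both wild-type ones, as for 23.5% of genes tested, by 0.08 ± 0.09 and 0.16 ± 0.11 on the log2 scale (SE, limma adjusted p = 0.644 and 0.404). Of these 5 genes, 0 were called with or without BLM3. Stard4, a soluble carrier that moves cholesterol to the endoplasmic reticulum and is itself a target of SREBP, had 19.6, 15.1 and 12.1 FPKM in the knockout libraries, and 19.4, 18.1 and 6.13 FPKM in the wild-type libraries. Its A20-1 value matched BLM1, and BLM3 was low as for the enzymes.

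The fatty acid branch was divided. Acly, which makes cytosolic acetyl-CoA from citrate (ENSMUSG00000020917.17, chromosome 11, 100476353 to 100528000, minus strand), had 80.9, 57.1 and 74.4 FPKM in the knockout libraries, and 58.8, 58.8 and 31.4 FPKM in the wild-type libraries. Acly had the largest positive difference of the 31 genes, 0.54 ± 0.27 on the log2 scale (SE, n = 3 each, 95% interval -0.10 to 1.19), which was not called (limma adjusted p = 0.309) and was 0.25 ± 0.16 without BLM3. Acaca, which commits acetyl-CoA to fatty acids as malonyl-CoA, had 5.18, 3.07 and 4.94 FPKM in the knockout libraries, and 5.16, 4.26 and 2.66 FPKM in the wild-type libraries. Fasn, fatty acid synthase, had 21.2, 13.7 and 18.6 FPKM in the knockout libraries, and 20.7, 17.9 and 7.47 FPKM in the wild-type libraries. For these 3 genes of palmitate synthesis A20-3 was the lowest knockout library and A20-1 the highest, and the knockout range overlapped BLM1 or BLM2 in each case.

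The desaturases among the 31, Fads1 and Fads2, looked like the sterol enzymes instead. Fads1, a front-end desaturase of polyunsaturated fatty acids (ENSMUSG00000010663.4, chromosome 19, 10182888 to 10196870, plus strand), had 22.9, 19.3 and 19.9 FPKM in the knockout libraries, and 32.8, 33.3 and 16.6 FPKM in the wild-type libraries. Its log2 difference was -0.34 ± 0.27 (SE, n = 3 each, limma adjusted p = 0.503), and without BLM3 Fads1 fell by 0.66 ± 0.11 (adjusted p = 0.0334). Fads2, also on chromosome 19 and the desaturase that acts before it, had 10.4, 6.27 and 6.00 FPKM in the knockout libraries, and 16.2, 15.6 and 2.46 FPKM in the wild-type libraries. Fads2 had the largest SE of the 31 genes with 6 libraries (0.62), and stood at 47.5% of the mean of BLM1 and BLM2 in the knockout libraries and 15.5% in BLM3, and its log2 difference without BLM3 was -1.02 ± 0.22 (SE, limma adjusted p = 0.0588). The elongases spanned a narrower range. Elovl5, which extends polyunsaturated chains, averaged 33.1 ± 3.67 FPKM in the knockout and 27.5 ± 4.01 FPKM in the wild-type libraries (SD, n = 3 each). Elovl6, which extends palmitate, averaged 2.48 ± 0.333 FPKM in the knockout and 2.65 ± 0.533 FPKM in the wild-type libraries, with all knockout values between BLM3 and the other wild-type libraries.

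Set side by side, the branches shared the low values of BLM3 and differed in where the knockout libraries lay relative to BLM1 and BLM2. Of the 7 fatty acid genes, 3 were negative and 4 positive with 6 libraries, with a median log2 difference of 0.11 and 0 called in either direction. Without BLM3, 5 were negative and 2 positive, the median was -0.12 against -0.49 for the sterol enzymes, and 1 fell (Fads1) with 0 rises. BLM3 was the lowest library for all 7, with a median of 53.4% of the mean of BLM1 and BLM2, against 36.6% for the sterol enzymes. The knockout median was 92.7% of that mean in the fatty acid branch and 70.9% in the sterol enzymes. In the further gene lists described below the order was reversed, so the contrast holds for the genes listed. There the knockout median was 95.6% for 29 sterol pathway genes and 81.2% for 28 fatty acid and triglyceride genes. The ratio of summed sterol enzyme FPKM to summed fatty acid gene FPKM stood at 2.73 in A20-1, 3.24 in A20-3 and 2.41 in A20-4, beside 3.62 in BLM1, 3.68 in BLM2 and 2.59 in BLM3. For the genes listed, that ratio was lower in every knockout library than in BLM1 and BLM2, while BLM3 lay inside the knockout range. The fatty acid sum leaves out the stearoyl desaturases Scd1 and Scd2, which are not among the 31. Scd1 had 11.4, 9.38 and 21.6 FPKM in the knockout libraries, and 46.4, 23.0 and 18.4 FPKM in the wild-type libraries. Scd2 had 45.8, 30.1 and 28.6 FPKM, and 61.6, 59.9 and 25.1 FPKM. Adding them would raise the fatty acid sum most in BLM1 and BLM2, and that ratio was not computed. Acly made up 41.0% to 47.7% of the fatty acid sum in the knockout libraries and 35.5% to 36.7% in the wild-type libraries. With Acly left out of the sum, an alternative chosen after seeing the data, the ratio was 5.07, 5.49 and 4.60 in the knockout libraries and 5.61, 5.75 and 4.09 in the wild-type libraries, so that BLM3 lay below the knockout range and the gap to BLM1 and BLM2 was narrower. The difference between the branches was not tested.

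**Figure D4:**
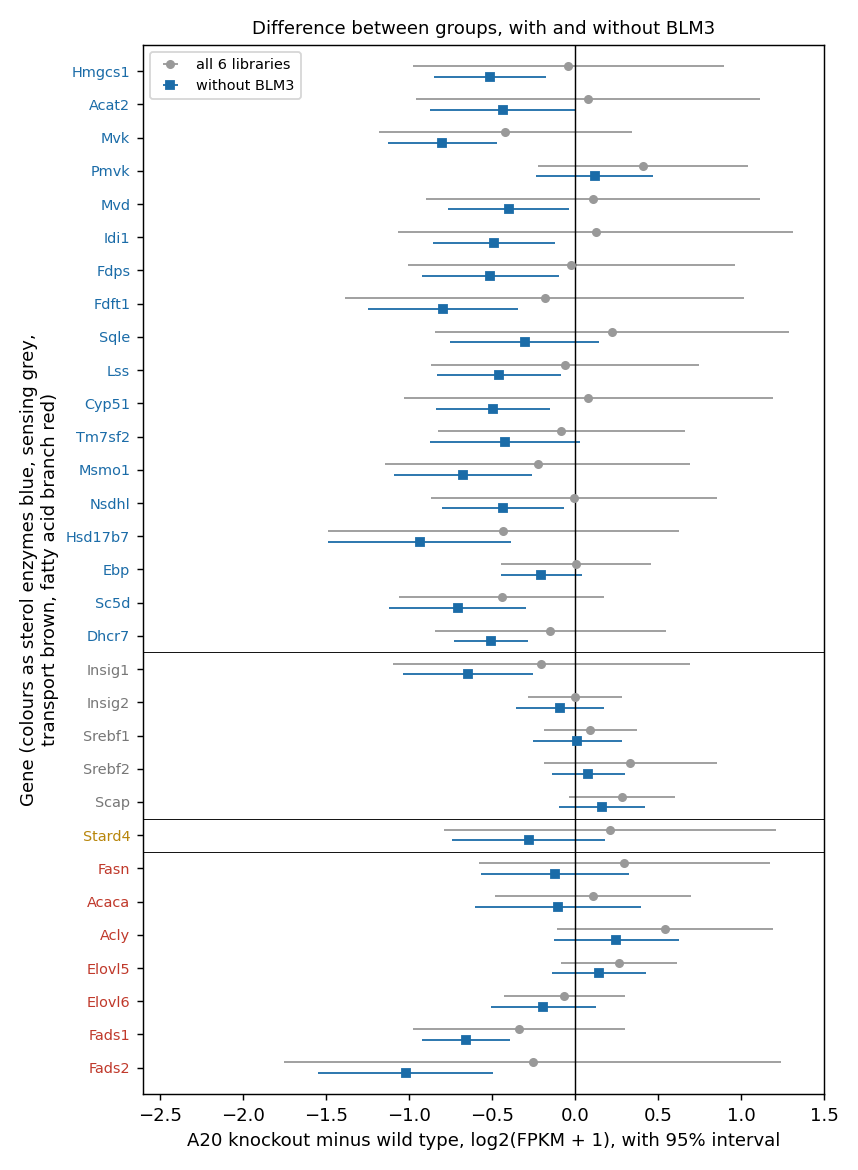
log2(FPKM + 1) in A20 knockout libraries less that in wild-type libraries for each of the 31 genes, with 95% interval, with all 6 libraries (grey circles) and without BLM3 (blue squares). With 6 libraries every interval spans 0, and without BLM3 17 of 18 sterol enzymes lie left of 0.

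All 3 calls made without BLM3 were close to the threshold. Rescaling those 5 libraries to TPM, which gives each the same sum, ended them, with limma adjusted p of 0.0525 for Mvk, 0.0745 for Dhcr7 and 0.0558 for Fads1 and log2 differences of -0.77, -0.44 and -0.59. With that rescaling the median of all genes was 0.11 and that of the sterol enzymes -0.41.

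Promoters from RefSeq (GRCm38.p6), from 250 bases before to 50 bases after the transcript start nearest the start in the deposited table, were found for 26 of the 31 genes and for 8447 of the genes tested. They are shown because the sterol enzymes varied together and SREBP acts with the CCAAT-binding factor NF-Y and with Sp1. Whether these factors had a part in that variation was not tested. Both strands were searched for TCACNCCAC (a form of the sterol element), the E-box CACGTG, the NF-Y box CCAAT and the Sp1 box GGGCGG. The fixed element TCACCCCAC is a case of the first. Hmgcs1 was the only 1 of the 26 with TCACNCCAC, in the form TCACCCCAC on the gene's strand, starting 137 bases before the transcript start. That element is in 1.03% of promoters of genes tested and 1.24% of all 32851 promoters. CCAAT was in 13 of 15 sterol enzyme promoters (86.7%) and in 3 of 6 of the fatty acid branch (50%), against 39% of promoters of genes tested and 37.4% of all. GGGCGG was in 14 of 15 (93.3%) and in 2 of 6 (33.3%), against 65.2% of promoters of genes tested and 35.7% of all. CACGTG was in 2 of 15 (13.3%) and in 1 of 6 (16.7%), against 10.6% of promoters of genes tested and 7.15% of all. In the sensing genes, CCAAT was in 4 of 5, GGGCGG in 3 of 5 and CACGTG in 2 of 5. A match is a description of these letters and no evidence of binding. Lack of a match does not show that a gene lacks an element, since other forms and bases outside the window were not searched. The nearest Acaca start was 65766 bases from the start in the table, so its window may not be the promoter in use. It was counted among the 6 of the fatty acid branch and held none of these motifs, which lowers the shares of that branch.

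The 4 promoters below begin with that of Hmgcs1, which alone of the 26 holds TCACNCCAC (chr13:119690101-119690400, plus strand). Next are those of Mvk (chr5:114444019-114444318, plus strand) and Dhcr7 (chr7:143822917-143823216, plus strand), the sterol enzymes past the threshold without BLM3. The last is that of Acly (chr11:100527951-100528250, minus strand), the fatty acid gene with the largest positive difference. Each is written from 5′ to 3′ on the gene's own strand, and capitals mark TCACNCCAC, CCAAT and GGGCGG on either strand. CCAAT occurs 4 times for Hmgcs1, 5 times for Mvk, 0 times for Dhcr7 and 1 time for Acly.
Hmgcs1: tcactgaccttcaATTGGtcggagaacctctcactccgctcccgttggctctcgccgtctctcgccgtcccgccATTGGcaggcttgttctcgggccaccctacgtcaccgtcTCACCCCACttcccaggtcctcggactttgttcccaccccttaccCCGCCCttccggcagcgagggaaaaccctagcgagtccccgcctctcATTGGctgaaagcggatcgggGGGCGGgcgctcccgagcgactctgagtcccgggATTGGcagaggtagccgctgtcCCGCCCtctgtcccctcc
Mvk: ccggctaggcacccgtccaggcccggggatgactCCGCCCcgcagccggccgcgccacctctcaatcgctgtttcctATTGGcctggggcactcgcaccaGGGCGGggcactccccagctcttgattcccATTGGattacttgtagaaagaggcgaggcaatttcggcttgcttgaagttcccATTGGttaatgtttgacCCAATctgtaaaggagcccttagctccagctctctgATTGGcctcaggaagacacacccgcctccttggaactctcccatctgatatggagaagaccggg
Dhcr7: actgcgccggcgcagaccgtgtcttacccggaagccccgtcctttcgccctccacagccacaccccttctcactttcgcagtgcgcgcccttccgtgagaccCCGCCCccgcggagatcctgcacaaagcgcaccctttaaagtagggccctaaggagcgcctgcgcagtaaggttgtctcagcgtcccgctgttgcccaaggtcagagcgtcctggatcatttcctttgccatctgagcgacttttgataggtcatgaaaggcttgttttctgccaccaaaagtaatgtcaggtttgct
Acly: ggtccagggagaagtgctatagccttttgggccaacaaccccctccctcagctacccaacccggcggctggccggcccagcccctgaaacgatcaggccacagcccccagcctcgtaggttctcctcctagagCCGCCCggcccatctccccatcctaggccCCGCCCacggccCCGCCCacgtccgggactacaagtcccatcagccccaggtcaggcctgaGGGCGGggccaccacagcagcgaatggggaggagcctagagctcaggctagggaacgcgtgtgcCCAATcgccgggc

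Other genes of the 2 branches, taken from lists that leave out the 31, gave 0 calls with 6 libraries. Of 29 further sterol pathway and sterol handling genes in the table, 0 rose and 0 fell with 6 libraries, with 2 higher and 1 lower at an unadjusted p under 0.05, against 11% and 9.3% of genes tested. Their median log2 difference was 0.10, and -0.06 without BLM3, where 0 were called as well. Dhdds, of dolichol synthesis, Npc2, the lysosomal cholesterol carrier, and the ubiquitin ligases Rnf145 and March6 had log2 differences of 0.73, -0.25, -0.44 and 0.30 with 6 libraries (limma adjusted p of 0.195 to 0.295).

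Of 28 further fatty acid and triglyceride genes, 0 were called with 6 libraries (3 higher and 3 lower at an unadjusted p under 0.05), with a median log2 difference of -0.13. Without BLM3, 1 rose and 3 fell, against 1.35% and 2.5% of genes tested, and the median was -0.28, beside 0.03 over all genes. Dgat2, which completes triglycerides, was the rise, with 19.2, 24.7 and 27.6 FPKM in the knockout libraries, and 6.92, 12.1 and 9.76 FPKM in the wild-type libraries. Every knockout value of Dgat2 was above every wild-type one, BLM3 included, as for 15.9% of genes tested. Its log2 difference was 1.24 ± 0.22 (SE, n = 3 each, limma adjusted p = 0.0592), or 1.27 ± 0.24 without BLM3 (adjusted p = 0.0462, and 0.0365 with TPM). The falls without BLM3 were the elongase Elovl7, the mitochondrial citrate carrier Slc25a1 and malic enzyme Me1, at log2 differences of -0.75, -0.58 and -0.66 and limma adjusted p of 0.0405, 0.0435 and 0.0498, none of them called with TPM (0.0531, 0.0644 and 0.0697). Slc25a1 exports the citrate that Acly cleaves and had the library order of the sterol enzymes, with 28.3, 28.0 and 24.3 FPKM in the knockout libraries, and 41.4, 39.7 and 19.2 FPKM in the wild-type libraries. Lpin1, a phosphatidate phosphatase, Nr1h3, the oxysterol receptor LXR alpha, and Acss2, which makes acetyl-CoA from acetate, had log2 differences of 1.29, 0.37 and -0.38 with 6 libraries (adjusted p = 0.109, 0.139 and 0.178).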

How the data were processed

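RNA-seq libraries of alveolar macrophages were deposited as 1 table of FPKM per gene, per the file headers. Per the labels' protocols, Trizol RNA from frozen cells (1 ug) went into KAPA stranded libraries. GRCm38 is the build that the submitters' processing notes name, and 28 of the 31 genes had the same coordinates in GENCODE M21. No source used here names the aligner, quantifier or annotation release, or says whether strand was used in counting. The 3 columns named A20 were taken as knockout and the 3 named only BLM as wild type, since the labels hold only these 2 groups, and 0 columns of sample values were left unused. Low values showed no common step that would give whole reads, so depth is unknown and counting intervals cannot be computed. The libraries' FPKM summed to 266094 to 294525.

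The 10696 genes that averaged 1 FPKM or more were compared on log2(FPKM + 1), a pseudocount of 1, with limma 3.58.1 in R 4.3.3 (eBayes with a mean trend, two-sided, Benjamini-Hochberg over all genes tested, threshold 0.05). All 31 members passed this filter. Differences are knockout minus wild type and understate changes of genes with low FPKM. Intervals are 95% intervals from limma's moderated spread. The fit was tested on simulated data with capped spread and the same noise in every library. That test does not cover a library that stands apart, as BLM3 did. Alternatives were other pseudocounts, filters, scalings and variance models and leaving out each library, and, added after the data were seen, 4 of them combined with leaving out BLM3, and a branch ratio without Acly. The members and lists were chosen with earlier results of these data known. Named genes are the 31 members, Tnfaip3, the 5 genes with the smallest p of each further pathway list (1 of them is not reported here) and up to 3 abundant genes of 2 marker lists. Slc25a1, Me1, Scd1, Scd2, Ly6g, the other markers named and the printed promoters of Mvk, Dhcr7 and Acly were chosen after values were seen. The genes were chosen as those called, as a defining marker or as members that made up much of their list's sum or went against it. Scd1 and Scd2 were named as desaturases that the branch sum leaves out. Listed symbols that did not match the table were not analysed here.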

Additional observations from a re-analysis of the deposited data

How the results depend on the processing

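With 6 libraries, 27 genes rose and 91 fell in the knockout libraries. The counts were 17 and 58 at a mean FPKM of at least 5, 41 and 64 after rescaling to TPM (rises were 39.0% of calls, against 22.9%, and the median of all genes was 0.10, against 0.02) and 942 and 992 with array weights, which weight libraries by their fit. Array weights called 3 sterol enzymes (Hsd17b7, Sc5d and Mvk) and 1 fatty acid gene (Fads1), all as falls, where the 6 libraries had given 0 and 0. Leaving out 1 library gave 0 to 217 rises and 0 to 288 falls over all genes, 0 to 2 falls of sterol enzymes and 0 to 1 of fatty acid genes, the upper ends without BLM3. These ranges include TPM, pseudocounts of 0.1 and 5 and no mean trend without BLM3, which were chosen after seeing the data, and no mean trend ended the call of Dhcr7 (limma adjusted p = 0.0545). The ratio of sterol to fatty acid FPKM without Acly, also chosen after seeing the data, was 5.07 in A20-1, 5.49 in A20-3 and 4.60 in A20-4, beside 5.61 in BLM1, 5.75 in BLM2 and 4.09 in BLM3. The cause of these changes was not tested. Pseudocounts, quantile normalization, no filter and no mean trend left the counts within 1.5 times.

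None of the log2 differences that changed sign had passed the threshold with 6 libraries. With array weights they became Cyp51 -0.47, Mvd -0.31, Sqle -0.31, Acat2 -0.31, Ebp -0.13, Idi1 -0.53, Stard4 -0.31, Acaca -0.15 and Fasn -0.15. With TPM they became Nsdhl 0.082, Lss 0.028, Fdps 0.065, Hmgcs1 0.046 and Insig2 0.080, and with a pseudocount of 0.1 Nsdhl became 0.00102 and Insig2 0.000888. Over the fits that left out 1 library the ranges were Cyp51 -0.50 to 0.37, Mvd -0.40 to 0.41, Fdft1 -0.82 to 0.25, Sqle -0.31 to 0.50, Acat2 -0.46 to 0.41, Tm7sf2 -0.49 to 0.14, Ebp -0.21 to 0.15, Nsdhl -0.45 to 0.23, Msmo1 -0.71 to 0.019, Lss -0.51 to 0.15, Idi1 -0.50 to 0.48, Dhcr7 -0.53 to 0.039, Fdps -0.52 to 0.27, Hmgcs1 -0.52 to 0.21, Insig2 -0.10 to 0.073, Insig1 -0.65 to 0.082, Stard4 -0.29 to 0.48, Acaca -0.13 to 0.30, Fads2 -1.11 to 0.14, Fasn -0.13 to 0.56 and Elovl6 -0.25 to 0.019. The unknown depth limits what can be said of low genes such as Elovl6. No paired analysis was possible because the columns carry numbers that do not match the replicates in the titles.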
